A study of Mus musculus with 6 samples.

Results

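The genes described here mark the neurons and glia of the embryonic airway. The set holds 8 genes, *Tubb3*, *Stmn2*, *Elavl3*, *Elavl4*, *Prph*, *Ret*, *Gfra1* and *Sox10*. Each was found by its symbol in the authors' deposited table of 24402 loci, and all 8 had 1 locus each. The table compares lungs of wild-type embryos, called control, with lungs of their *Yap* f/f; *Shh* Cre/+ littermates, called *Yap* mutant, at 12.5 *dpc* in the C57BL/6 strain. RNA from whole lungs was sequenced as 3 libraries per genotype, and the authors summarised each genotype to 1 FPKM value per locus (fragments normalised for transcript length and library size). In the mutants, Cre is inserted at 1 *Shh* copy and deletes floxed *Yap* where *Shh* is made, which in the lung is the epithelium. The control embryos are labelled wild type. Neurons and glia do not descend from the epithelium in which Cre is made, so *Yap* is expected to be intact in them. Values per library were not used here. There is therefore no spread between libraries, no depth and no test, and every comparison below is a description of 2 group values. The values come from whole tissue, in which fewer cells of a type and less RNA per cell cannot be told apart.

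The intrinsic neurons of the airway descend from neural crest cells of the vagal region. They reach the lung from the foregut and gather as small ganglia along the smooth muscle of the trachea and bronchi, where they are accompanied by glia and by the fibres of the vagus nerve. RET is the receptor tyrosine kinase of the GDNF family of ligands, and it binds them together with a co-receptor of the GFRα family. SOX10 is kept by crest progenitors and by glia, whereas young neurons switch it off and turn on neuronal tubulin, stathmin and ELAVL proteins.

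Of the 8 genes, 7 had a lower value in *Yap* mutant than in control lungs and *Gfra1* had a higher one. The lower values were those of every gene of neurons in the set, of *Ret* and of the glial gene *Sox10*. The median log2 ratio of *Yap* mutant over control was -0.55, both over all 8 genes and over the 6 genes that averaged 1 FPKM or more over the 2 groups. Over the 12716 loci with such an average the median was -0.01, and 51.8% of them had a lower value in the mutants, as 5 of the 6 genes did. *Tubb3* and *Stmn2* were at least 1.5-fold lower in the mutants, which is 2 of the 6 genes, and 3.46% of the 12716 loci were lower by as much. None (0) of the 6 genes was at least 1.5-fold higher, as 4.61% of the loci were. *Ret* and *Elavl4*, at 1.48-fold and 1.45-fold lower, lay just short of that limit. At a smaller limit, a log2 difference of 0.32, 5 of the 6 genes were lower, against 6.95% of the loci, and none (0) was higher, against 9.99%. *Sox10* had the smallest difference of these 5 genes.

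**Figure D1:**
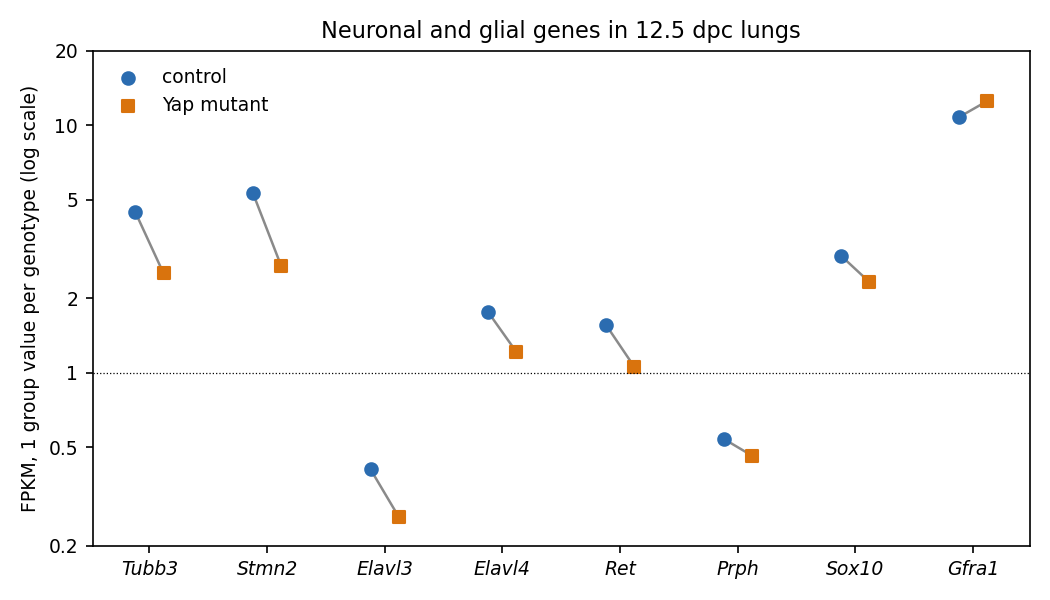
Values of the 8 genes in control (circles) and *Yap* mutant (squares) lungs at 12.5 *dpc*, in FPKM on a log scale, with a line joining the 2 group values of a gene. The lines of 7 genes slope down and that of *Gfra1* slopes up, from 10.8 to 12.5 FPKM. The dotted line marks 1 FPKM, below which *Elavl3* and *Prph* lie in both groups.

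*Tubb3* encodes the β-tubulin of neurons and is a standard marker of their cell bodies and axons. Its locus lies on the plus strand of chromosome 8 from 123411564 to 123422010 (mm10, which is GRCm38). It measured 4.46 FPKM in the controls and 2.52 FPKM in the mutants, a log2 ratio of -0.82. The mutant value was 56.5% of the control value. *Stmn2* encodes stathmin 2, a regulator of microtubules in growing axons, and lies on the plus strand of chromosome 3 from 8509527 to 8561604. It had the largest difference of the set in proportion, with 5.32 FPKM in the controls and 2.70 FPKM in the mutants, a log2 ratio of -0.98. The 2 genes kept nearly the same proportion to each other, with 1.19 units of *Stmn2* per unit of *Tubb3* in control lungs and 1.07 in the mutants. *Prph*, on the plus strand of chromosome 15 from 99055174 to 99058978, encodes peripherin, the intermediate filament of peripheral neurons. It was scarce, at 0.541 FPKM in the controls and 0.463 FPKM in the mutants (log2 ratio -0.23).

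*Elavl3* and *Elavl4* encode the RNA-binding proteins HuC and HuD, which stabilise neuronal transcripts and appear as crest cells become neurons. *Elavl3*, on the minus strand of chromosome 9 from 22015005 to 22052023, had 0.407 FPKM in the controls and 0.261 FPKM in the mutants, a log2 ratio of -0.64. *Elavl4*, on the minus strand of chromosome 4 from 110203737 to 110351911, had 1.75 FPKM in the controls and 1.21 FPKM in the mutants, a log2 ratio of -0.53. *Elavl4* was thus the more abundant of the pair in both groups, at 4.31 times the FPKM of *Elavl3* in control lungs and 4.64 times in the mutants. Summed over the 5 genes of neurons (*Tubb3*, *Stmn2*, *Elavl3*, *Elavl4* and *Prph*), FPKM was 12.5 in control and 7.16 in *Yap* mutant lungs, a log2 ratio of -0.80. *Stmn2* and *Tubb3* make up most of this sum in both groups.

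*Ret*, on the minus strand of chromosome 6 from 118151748 to 118197744, had 1.56 FPKM in the controls and 1.06 FPKM in the mutants, a log2 ratio of -0.56. *Gfra1*, which encodes the co-receptor that prefers GDNF, lies on the minus strand of chromosome 19 from 58231385 to 58455240. It was the most abundant gene of the set and the only one with a higher value in the mutants, at 10.8 FPKM in the controls and 12.5 FPKM in the mutants (log2 ratio 0.22). The co-receptor was therefore at 6.90 times the FPKM of *Ret* in control lungs and at 11.8 times in *Yap* mutant lungs. Both genes can also be expressed outside the nervous system, and whole-lung values do not show in which cells their transcripts lay.

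*Sox10*, on the minus strand of chromosome 15 from 79154913 to 79164490, encodes the transcription factor of crest progenitors and glia. It measured 2.96 FPKM in the controls and 2.32 FPKM in the mutants, a log2 ratio of -0.35, which is a smaller difference than that of 5 of the other members. The summed FPKM of the 5 genes of neurons was 4.21 times that of *Sox10* in control lungs and 3.08 times in *Yap* mutant lungs. The log2 ratio between these proportions was -0.45.

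The order of the genes by level was the same in both groups, from *Gfra1* at the top through *Stmn2*, *Tubb3*, *Sox10*, *Elavl4*, *Ret* and *Prph* to *Elavl3*. Without values per library it cannot be said which neighbours in this order differ beyond their spread. Low loci vary more between the groups, so each gene was also set beside the loci whose mean lay between 0.5 and 2 times its own. Of 3354 such loci for *Stmn2*, 73 (2.18%) had as low a ratio or a lower one, and of 3147 for *Tubb3*, 108 (3.43%) did. For *Ret*, *Elavl4* and *Sox10* the shares were 10.9%, 11.2% and 12.5%, and for the still lower *Elavl3* and *Prph* they were 15.3% and 28.0%. For *Gfra1*, 11.3% of 5170 loci had as high a ratio or a higher one. The shares were thus smallest for *Stmn2* and *Tubb3*.

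**Figure D2:**
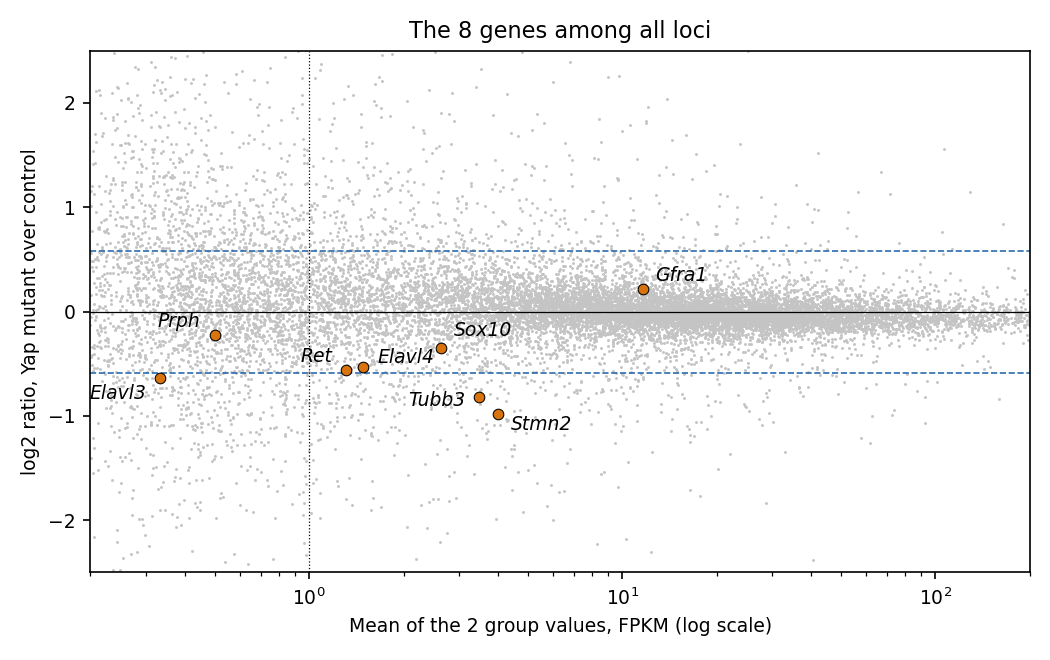
Log2 ratio of *Yap* mutant over control against the mean of the 2 group values in FPKM (log scale), with each grey point a locus above 0 in both groups and the 8 genes in orange. Loci beyond the axis limits are not drawn. Dashed lines mark a 1.5-fold difference and the dotted line a mean of 1 FPKM. *Stmn2* and *Tubb3* lie below the lower dashed line at means of 4.01 and 3.49 FPKM, while *Ret* and *Elavl4* lie just above it.

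Reads from related genes were checked on the transcripts of GENCODE M21. Of the distinct 50-base stretches in the longest coding transcript of each gene, none (0) of *Tubb3*, *Stmn2*, *Elavl4*, *Ret*, *Prph*, *Sox10* and *Gfra1* occurred in a transcript of another gene. For *Elavl3*, 0.181% occurred in transcripts of genes elsewhere, and 4.17% in Gm49318, a gene that overlaps it on the same strand. The *Tubb3* locus lies inside the long gene Gm20388 on the same strand, and that of *Gfra1* reaches into Gm16277 on the opposite strand. The libraries were stranded, but no source read here says whether counting used the strand.

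Relatives of the members, added after the values of the lists were seen, had the following values. *Tubb2b*, a β-tubulin of young neurons that other embryonic cells also make, had 49.8 FPKM in the controls and 34.1 FPKM in the mutants (log2 ratio -0.55), and *Tubb4a* had a log2 ratio of -0.63. The broadly expressed *Tubb5* and *Tubb4b* had log2 ratios of -0.19 and -0.04. *Stmn3*, a neuronal stathmin, had 1.58 FPKM in the controls and 0.886 FPKM in the mutants (log2 ratio -0.83), while the log2 ratio of *Stmn1*, which dividing cells express, was -0.34 at 628.3 FPKM in control lungs. *Elavl1*, the member of the ELAVL family found in all tissues, had a log2 ratio of -0.12, and the neuronal *Elavl2* one of -0.25. *Tubb2b*, *Tubb4a* and *Stmn3* thus had lower ratios than *Tubb5*, *Tubb4b* and *Stmn1*, but the neuronal *Stmn4* did not. *Stmn4*, under 1 FPKM, had a log2 ratio of 0.06. The other β-tubulin genes *Tubb2a*, *Tubb6* and *Tubb1* had log2 ratios of -0.29, -0.27 and 0.06. Among relatives of *Prph*, the neurofilament genes *Nefl* and *Nefm* had log2 ratios of -0.13 and -0.18.

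Sequences next to the transcription start are shown for genes of the set that differ in direction, 3 lower and *Gfra1* higher in the mutants. RefSeq windows of GRCm38.p6 were matched for 5 of the 8 genes, *Tubb3*, *Elavl3*, *Elavl4*, *Prph* and *Gfra1*, with 8 windows in all. A window runs from 250 bases before to 50 bases after a start. The 250 bases before the start are printed 5′ to 3′ on the strand of the gene, at chr8:123411303-123411552 for *Tubb3*, chr9:22052024-22052273 for *Elavl3*, chr4:110287528-110287777 for an internal start of *Elavl4* and chr19:58455399-58455648 for *Gfra1*. Capitals mark the letters searched for.
Tubb3: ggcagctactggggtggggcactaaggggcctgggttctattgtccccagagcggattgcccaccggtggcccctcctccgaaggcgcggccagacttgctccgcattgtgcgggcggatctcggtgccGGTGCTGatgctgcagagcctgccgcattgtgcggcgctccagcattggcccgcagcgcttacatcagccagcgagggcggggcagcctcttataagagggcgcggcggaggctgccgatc
Elavl3: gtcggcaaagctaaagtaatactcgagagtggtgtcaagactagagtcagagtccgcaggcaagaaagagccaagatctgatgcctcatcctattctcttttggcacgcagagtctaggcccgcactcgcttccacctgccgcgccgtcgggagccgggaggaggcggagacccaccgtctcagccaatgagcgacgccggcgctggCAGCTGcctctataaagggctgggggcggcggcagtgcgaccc
Elavl4: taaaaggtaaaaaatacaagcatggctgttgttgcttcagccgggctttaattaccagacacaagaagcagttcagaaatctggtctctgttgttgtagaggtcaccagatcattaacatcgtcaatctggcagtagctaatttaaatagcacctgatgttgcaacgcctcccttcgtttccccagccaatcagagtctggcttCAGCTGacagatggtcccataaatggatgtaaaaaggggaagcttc
Gfra1: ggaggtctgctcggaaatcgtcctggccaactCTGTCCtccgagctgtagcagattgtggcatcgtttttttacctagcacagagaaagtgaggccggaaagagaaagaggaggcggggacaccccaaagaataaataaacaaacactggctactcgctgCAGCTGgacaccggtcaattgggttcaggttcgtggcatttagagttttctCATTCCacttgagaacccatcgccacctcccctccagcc

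The letters searched for, on both strands, were GGAATG (the core bound by TEAD factors, the partners of YAP), ACAAAG (bound by SOX factors), CAGCACC and GGACAG (the parts of RE1, the element of the neuronal repressor REST) and CAGCTG (an E box, which reads the same on both strands). None of these strings contains another, though their ends can overlap. CAGCTG was in the windows of *Elavl3*, *Elavl4* and *Gfra1*, and 16.3% of all 32851 windows hold it. For *Elavl4* it was in 2 windows that overlap and so share the site. CATTCC, which is GGAATG on the other strand, was in the window of *Gfra1* from 39 to 34 bases before the start, and 14.7% of windows hold that motif. GGTGCTG, which is CAGCACC on the other strand, was in the window of *Tubb3*, and 7.14% of windows hold it. GGACAG, on the other strand, was in the windows of *Tubb3* (after the start, not printed) and *Gfra1*, and 22.2% of windows hold it. ACAAAG, held by 18.7% of windows, was in none (0) of the 8 windows. The window of *Prph* held none (0) of these letters. With 5 genes, these counts are a description of the windows alone.

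Genes beyond the set were read in lists, and a member of a list counts as lower or higher at 1.5-fold averaging 1 FPKM or more. Of 10 transcription factors of autonomic neurons, 8 averaged 1 FPKM or more, 3 were lower, 1 was higher, and the median log2 ratio was -0.22. *Phox2a*, a homeobox gene of autonomic neurons, was among the lower ones, with 1.39 FPKM in the controls and 0.760 FPKM in the mutants (log2 ratio -0.87). *Tlx2*, a homeobox gene of enteric and autonomic neurons, had a log2 ratio of -0.40. *Gata3* was the higher one, at 0.945 FPKM in the controls and 1.44 FPKM in the mutants (log2 ratio 0.61). *Hand2* and *Isl1*, which heart and mesenchyme also express, had log2 ratios of 0.41 and 0.29, and *Sox11*, active in many embryonic tissues, one of -0.03. *Gata3* too is expressed outside neurons.

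In the list of other neuronal and axonal genes, 14 of 28 loci averaged 1 FPKM or more. Of these, 9 were below and 5 above their control value, 1 was at least 1.5-fold lower and 1 at least 1.5-fold higher, and the median log2 ratio was -0.15. The lower one was *Stmn3* and the higher one *Rtn1*, a reticulon gene, which had 7.26 FPKM in the controls and 14.3 FPKM in the mutants (log2 ratio 0.98). *Map1b*, a microtubule-associated protein gene, had 4.91 and 6.92 FPKM (log2 ratio 0.50). *Nsg1*, a gene of neuronal endosomes, was at 35.4 and 34.5 FPKM (log2 ratio -0.04). Of the 14 loci under 1 FPKM, 11 were below and 3 above their control value. *Snap25*, of the synaptic fusion machinery, had 0.529 FPKM in the controls and 0.259 FPKM in the mutants, and *Mapt*, which encodes tau, had 0.387 and 0.223 FPKM. *Syt1*, a synaptic vesicle gene, had a log2 ratio of -0.04. The 3 above were *Stmn4* (log2 ratio 0.06), *Nefh* (log2 ratio 1.53) and *Scg2*, at 0.0482 FPKM in the controls and 0.0967 FPKM in the mutants. These 6 genes were chosen after their values were seen.

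Among transmitter and neuropeptide genes, 11 of 15 loci were under 1 FPKM. The cholinergic genes *Chat*, *Slc18a3* and *Slc5a7*, which make and carry acetylcholine, had at most 0.231 FPKM in either group, and *Vip* was listed at 0 in *Yap* mutant and at 0.0283 FPKM in control lungs. These 4 were chosen after their values were seen. Of the 4 loci averaging 1 FPKM or more, 2 were higher and none (0) lower. *Npy*, a neuropeptide gene, had 0.607 FPKM in the controls and 2.81 FPKM in the mutants (log2 ratio 2.21). *Ddc*, the decarboxylase that makes dopamine and serotonin, had 8.30 and 20.7 FPKM (log2 ratio 1.32). The monoamine carrier gene *Slc18a2* had a log2 ratio of 0.49 and *Gal*, which encodes galanin, one of -0.19. *Npy* and *Ddc* thus differed in the opposite direction from *Tubb3* and *Stmn2*, and both can also be expressed outside neurons.

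**Figure D3:**
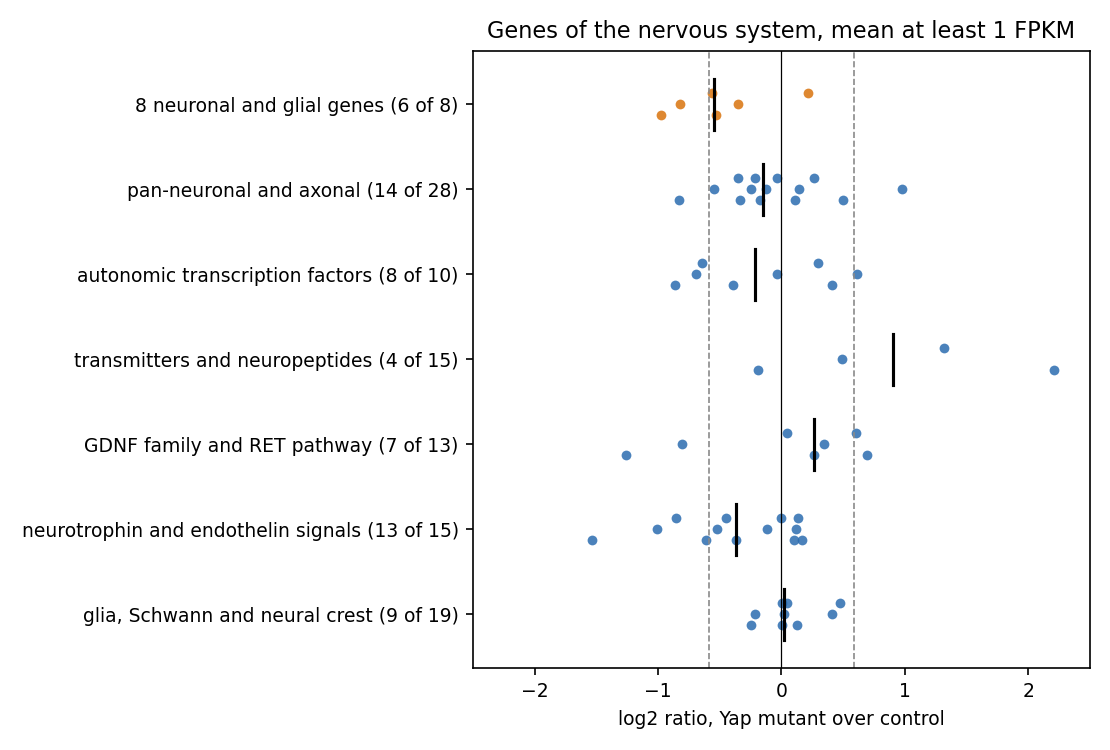
Log2 ratio of *Yap* mutant over control for each locus averaging 1 FPKM or more, by list, with the number of such loci of all loci in brackets. Black bars are medians and dashed lines a 1.5-fold difference. The median is -0.55 for the 8 genes, -0.22 for autonomic transcription factors and 0.02 for glia, Schwann cells and neural crest.

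Of the ligands of RET, *Nrtn*, which encodes neurturin, had 3.78 FPKM in the controls and 2.17 FPKM in the mutants, a log2 ratio of -0.80. *Gdnf* was low, at 0.214 and 0.353 FPKM, and *Artn* and *Pspn* were under 1 FPKM in both groups. Among co-receptors, *Gfra2*, which prefers neurturin, had 5.09 FPKM in the controls and 7.73 FPKM in the mutants (log2 ratio 0.60), and *Gfra4* had a log2 ratio of 0.05. Each of the co-receptor genes *Gfra1*, *Gfra2*, *Gfra3* and *Gfra4* had a higher value in the mutants, whereas *Ret* had a lower one. Of these co-receptor genes only *Gfra2* differed by 1.5-fold, and *Gfra3* was under 1 FPKM in both groups (0.710 and 0.991 FPKM). The ligand genes did not share a direction, as *Nrtn*, *Artn* and *Pspn* had lower values in the mutants and *Gdnf* a higher one. Relative to the median of the mesenchyme list, which was 0.11, the log2 ratio of *Gfra4* changes sign. The adaptor gene *Dok4* and the feedback gene *Spry2* had log2 ratios of 0.35 and 0.26. *Etv4* and *Etv5*, targets of RET that FGF signalling in the lung also induces, differed in direction. *Etv4* had a 1.62-fold higher value in the mutants (log2 ratio 0.70), and *Etv5* had 86.9 and 36.3 FPKM (log2 ratio -1.26). Over this list, 7 of 13 loci averaged 1 FPKM or more, 2 were lower and 2 higher, and the median log2 ratio was 0.26.

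Signals from other families that act on crest cells were lower where they differed by 1.5-fold. Of 13 loci averaging 1 FPKM or more, of 15 in the list, 4 were lower and none (0) higher, with a median log2 ratio of -0.37. *Edn3*, the endothelin that keeps crest progenitors from differentiating early, had 6.91 FPKM in the controls and 2.38 FPKM in the mutants (log2 ratio -1.54). Its receptor gene *Ednrb*, which crest cells share with mesenchyme and endothelium, was 1.81-fold lower from a control value of 36.1 FPKM (log2 ratio -0.85). *Bdnf*, which encodes a neurotrophin made by target tissues, had a log2 ratio of -0.61. The neuregulin receptor gene *Erbb2* had a log2 ratio of 0.17.

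Genes of glia, Schwann cells and neural crest other than *Sox10* had both lower and higher values. Of 19 loci of the list, 9 averaged 1 FPKM or more, and none (0) of these was 1.5-fold lower or higher. Their median log2 ratio was 0.02. *Fabp7*, a fatty acid-binding protein of glial precursors, had 5.37 and 4.63 FPKM (log2 ratio -0.22). *Mbp*, *Cdh6*, *Cnp* and *Fign* had log2 ratios of -0.25, 0.05, 0.13 and 0.00. *Pou3f1*, a factor of Schwann cells, and *Sox5* had log2 ratios of 0.41 and 0.48. *Metrn* shares a locus with *Fam173a*, and the joint log2 ratio was 0.01. Several of these genes are also made outside glia. The crest genes *Foxd3* and *Cdh19*, both under 1 FPKM and chosen after their values were seen, had log2 ratios of -0.39 and -0.47. They stood nearer to *Sox10*.

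The label of the set was checked against markers of other neural cells. Genes that define sensory neurons and the neural tube were close to 0. Of 10 loci for sensory neurons, 8 had a mean under 1 FPKM, and of 13 for the neural tube, 12 did. The sensory genes above it were *P2rx2*, an ATP receptor gene of vagal sensory and autonomic neurons (2.01 FPKM in the controls and 1.09 FPKM in the mutants, log2 ratio -0.88) and the stretch channel gene *Piezo2* (log2 ratio 0.22). Among genes of neuroendocrine cells, which share neuronal genes, 8 of 13 loci were under 1 FPKM. *Uchl1*, which neurons and neuroendocrine cells express, had 29.5 FPKM in the controls and was 1.48-fold lower in the mutants (log2 ratio -0.56). *Calca*, which encodes CGRP, had 1.29 FPKM in the controls and 3.88 FPKM in the mutants (log2 ratio 1.59), and *Syp* and *Robo2* had log2 ratios of 0.18 and 0.00. *Tlx2*, a gene of enteric and autonomic neurons, was above 1 FPKM in both groups, but values of whole lungs do not place such cells along the airway. *Sox10* was above 1 FPKM too, but it belongs to the set and so is no separate check on its label.

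Other tissues differed between the 2 groups in the same table, and their part in the results was not tested. Markers of smooth muscle, along which the ganglia lie, had lower values. Of 9 loci averaging 1 FPKM or more, 5 were lower and 1 higher, with a median log2 ratio of -1.06. *Acta2*, smooth muscle actin, had 125.2 and 59.9 FPKM. The median of 20 epithelial loci was -0.59, that of 19 mesenchymal loci 0.11 and that of 10 endothelial loci 0.14. All 12 cardiac muscle loci averaging 1 FPKM or more were higher in the mutants, with a median log2 ratio of 3.29 and, over the 13 loci of the list, a summed level of 131.6 FPKM in the controls and 968.1 FPKM in the mutants, cardiac *Myh6* having 4.39 and 60.2 FPKM. Of 4 loci in the liver list averaging 1 FPKM or more, 3 were higher past 1.5-fold. These were *Afp*, *Ttr* and *Apoa1*, while *Alb* had a log2 ratio of -0.16. Of oesophagus and stomach genes, *Barx1* and *Nkx6-1* had log2 ratios of -0.34 and 0.03, and *Sox2*, which the proximal airway also expresses, one of -1.73. *Yap1* itself had 76.1 and 65.6 FPKM, a value that covers the whole locus and all cells. Of 4 Y-linked genes (*Uty*, *Kdm5d*, *Ddx3y* and *Eif2s3y*), none exceeded 0.0163 FPKM in the controls and all reached 4.61 FPKM or more in the mutants. The X-linked *Xist* had a log2 ratio of -0.95. The sex of the embryos was thus not matched between the groups. The 2 group values cannot separate sex from genotype for any ratio given here, and the part of sex was not tested. Nor can they separate loss of *Yap* from the *Shh* copy that holds Cre, as the controls are labelled wild type. *Shh* had 15.6 FPKM in the controls and 2.31 FPKM in the mutants, and the part of that copy was not tested.

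**Figure D4:**
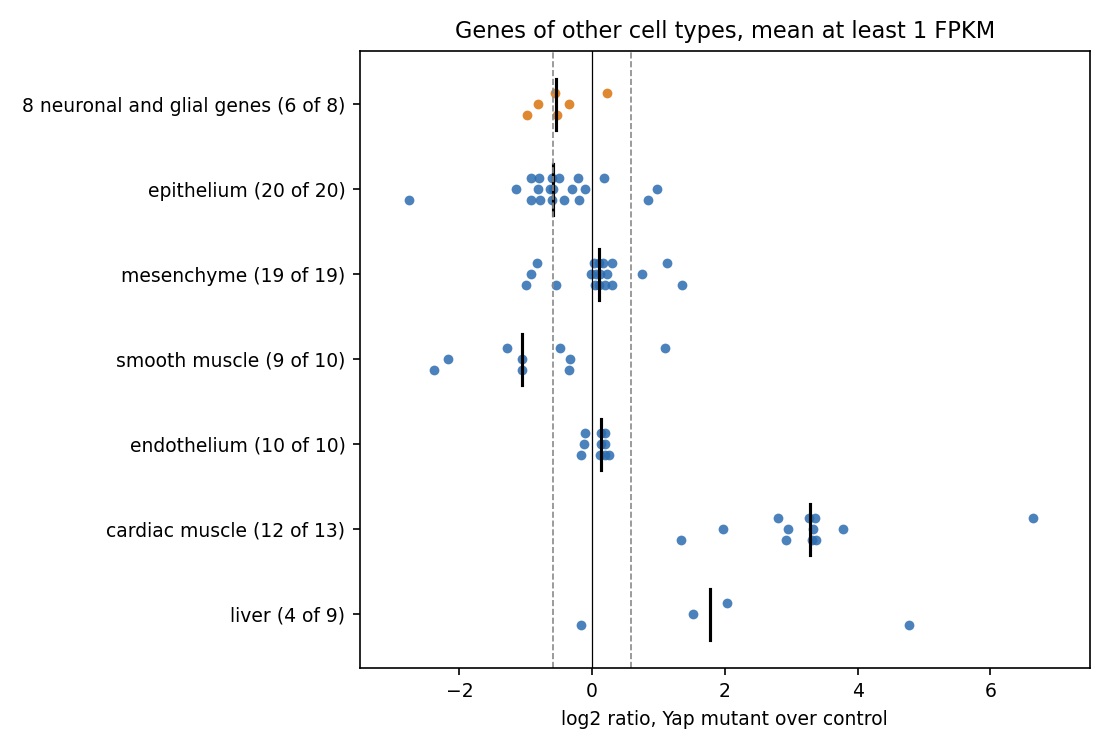
Log2 ratio of *Yap* mutant over control for loci averaging 1 FPKM or more, by list of cell type markers, with the number of such loci of all loci in brackets. Black bars are medians, -0.55 for the 8 genes, -0.59 for epithelium, -1.06 for smooth muscle and 3.29 for cardiac muscle.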

How the data were processed

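RNA was extracted from whole lungs at 12.5 *dpc*, 3 libraries per genotype, made with a strand-specific kit and read from both ends on HiSeq machines. The submitters' processing notes name TopHat, Cuffdiff and mm10. No source used here gives versions. The authors' deposited tables give 1 FPKM value per genotype. The unit was inferred from the Cuffdiff layout. The fold changes and unadjusted p-values in the deposited tables are the authors' own comparison and were not used. No depth or spread per library is known. Groups follow the labelled genotypes, and table columns were matched to them by name.

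Log2 ratios were computed from the group values without a pseudocount. Loci at least 1.5-fold lower or higher averaging 1 FPKM or more were counted. Members and lists were chosen with earlier results of these data known. Named were all members, every locus with that mean in the autonomic, GDNF and glial lists, and in others some of the 4 largest ratios and 2 highest levels. A few genes that fall under this rule are not reported here. Locus starts count from 0 (9308 loci start 1 below the RefSeq gene, 617 at it), so 1 was added. The shorter deposited table has 2395 loci. Of these, 2370 agreed within 1% with the table of all loci, and no member (0) was among the 25 that differed. *Elavl3*, *Prph*, *Sox10* and *Gfra1* are not in the shorter table, so the comparison does not cover them. The counting code was checked on control values changed by a known fold at some loci and left equal at the rest. No spread was added, so this checks the code alone. Python 3.11.15 and matplotlib 3.10.9 were used. Alternatives were pseudocounts, filters, fold limits, scalings and the shorter table.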

Additional observations from a re-analysis of the deposited data

How the results depend on the processing

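No paired analysis was possible because each genotype has 1 summarised value, and for the same reason no library could be left out. Of the 6 genes averaging 1 FPKM or more, the 2 that were 1.5-fold lower became 4 relative to the median of the mesenchyme list, 5 at a log2 difference of 0.32, 0 at 2-fold and 0 above a floor of 5 FPKM, where *Gfra1* is the only gene of the set and the median is its 0.22. In the other alternatives the count was 2 or 3 and the median lay between -0.66 and -0.32. No gene of the set was higher by the fold limit in any of these alternatives. Leaving out *Gfra1*, or using the 5 genes of neurons alone, both chosen after seeing the data, gave medians of -0.56 and -0.64. No ratio of a single gene of the set changed by 1.5-fold or more in the 45 alternatives, counted over all genes of the set together. Most of these could not have done so, as they repeat the same value or shift every ratio by at most 0.11. The pseudocounts moved ratios further, and with 1 FPKM added the log2 ratio of *Elavl3* went from -0.64 to -0.16. Over all loci, 440 lower and 586 higher became 1512 and 2179 with no filter and 184 and 218 above a floor of 5 FPKM. They became 175 and 285 at 2-fold, and 884 and 1270 at 0.32 on the log2 scale. Wherever no filter was used, loci at 0 in either group were still left out. Of 94 list medians under the alternatives, 88 moved by less than 1.5-fold, and of 256 counts of lower or higher loci in lists, 196 stayed within 1.5 times. For the neural tube list, of which 1 locus averages 1 FPKM or more, the median was 0.39 with no filter, opposite in sign to that with it. With no filter, the median of the transmitter list was 0.02, against 0.90. No value has a known error.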
